A study of Mus musculus with 6 samples.

Results

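The transcripts of cholesterol and fatty acid synthesis were examined in the kidney cortex of male C57BL6 mice labelled 12 weeks old, 3 of them treated with captopril and 3 controls. Captopril inhibits the angiotensin-converting enzyme, and the treated mice drank it at 10 mg/kg/day for 7 days, while the labels do not say what else the controls received. RNA of each mouse was hybridised to 1 Illumina bead array. The gene set held 32 listed genes, and its members were all probes whose platform gene symbol was on that list, whatever their values. Of the listed genes, 29 had a named probe, with 48 probes among the 45281 on the array and against 19057 named genes in all. Expression of Hmgcs1, Fdft1 and Acat2 was not analysed here.

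Cells build cholesterol from acetyl-CoA through mevalonate, farnesyl units, squalene and lanosterol, and they build fatty acids from the same precursor through malonyl-CoA. Transcription of both routes is driven by the sterol regulatory element-binding proteins, which SCAP carries out of the endoplasmic reticulum when sterol is scarce and INSIG proteins hold back when it is plentiful. The members were ordered accordingly into sterol synthesis enzymes, regulators with a sterol transfer protein, and fatty acid synthesis enzymes. Proximal tubule cells, the bulk of the cortex, burn fatty acids for most of their energy, whereas adipocytes are cells with strong fatty acid synthesis.

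Between 16372 and 17312 probes per array were detected above the negative controls at a detection p under 0.05, and pairs of arrays correlated across probes at 0.984 to 0.987. In limma, 3 of the 16500 tested probes (0.0182%) passed an adjusted p of 0.05, and none of these was a member or the probe that stands for a named gene, which is the gene's tested probe with the highest mean. All 8 named proximal tubule genes were detected on all 6 arrays, while 0 of 7 named adrenal cortex genes were bright enough to test. The tested markers of loop, distal tubule and collecting duct were also detected on all 6. These markers therefore do not tell cortex from whole kidney. Values below are log2 of the background-corrected and quantile-normalized signal, called the neqc scale, and a difference is captopril minus control on that scale. Levels of different probes are not comparable with each other on an array.

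The members were well covered. A tested probe, meaning one detected on at least 3 of the 6 arrays, was found for 26 of the 29 named members (89.7%), against 51.0% of all named genes. At the probe that stands for the gene, 25 of these 26 members were detected on all 6 arrays, the exception being Tm7sf2. The other 3 members, Idi1, Fasn and Acaca, had only probes too dim to test. Fasn and Acaca, which encode fatty acid synthase and the acetyl-CoA carboxylase that feeds it, were not detected on any array at their single probes, and Idi1, the isopentenyl diphosphate isomerase gene, on 1 control array. A dim probe does not show that a transcript is missing, because a probe can also hybridise poorly.

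The members were also rich in a promoter feature that had no part in their choice, the letters CCAAT. In the RefSeq promoter windows of build GRCm38.p6, which run from 250 bases before to 50 bases after each start site, 26 of the 32 listed genes had a window. These include Hmgcs1 and Acat2, whose expression was not analysed, and 21 of the 26 were tested for expression. The letters CCAAT, the box bound by NF-Y, stood on either strand in a window of 22 of these 26 genes (84.6%), against 42.3% of the 7869 tested genes with a window and 41.1% of all 27025 genes in the table. The letters GGGCGG, bound by Sp1, stood in 21 (80.8%), against 68.0% of the tested genes and 38.2% of all. The E-box CACGTG stood in 5 (19.2%), against 12.0% and 8.09%. Among the 21 members tested for expression, CCAAT stood in 90.5%, GGGCGG in 85.7% and CACGTG in 23.8%. The core of the sterol regulatory element, searched as TCACNCCAC with N for any base, stood in 1 of them, Hmgcs1 (3.85%), against 1.44% of all genes, and in 0 of the 21 members tested for expression, against 1.45% of the tested genes. NF-Y and Sp1 are known partners of the sterol regulatory element-binding proteins at such promoters. CCAAT stood in 14 of 15 sterol synthesis genes with a window and in 4 of 6 fatty acid synthesis genes, and GGGCGG in 14 of 15 and 2 of 6. A gene with several windows was counted once if any window matched, and these shares are a description without a test.

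Stretches of 250 bases before the start site are shown for Msmo1 and Acly, the members whose groups did not overlap below, for the feedback regulator Insig1, and for Elovl6, in which none of the searched letters was found in this stretch. They lie at chr8:64733579-64733828 on the minus strand, chr11:100528001-100528250 on the minus strand, chr5:28071162-28071411 on the plus strand and chr3:129532136-129532385 on the plus strand. Each is written 5′ to 3′ along the gene's strand, with matches on either strand in capitals, so that ATTGG and CCGCCC are CCAAT and GGGCGG of the other strand.
Msmo1: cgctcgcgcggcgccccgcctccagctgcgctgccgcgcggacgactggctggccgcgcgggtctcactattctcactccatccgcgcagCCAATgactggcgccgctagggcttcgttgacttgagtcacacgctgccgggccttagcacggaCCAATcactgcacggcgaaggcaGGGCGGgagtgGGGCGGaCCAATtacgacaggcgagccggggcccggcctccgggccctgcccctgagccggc
Acly: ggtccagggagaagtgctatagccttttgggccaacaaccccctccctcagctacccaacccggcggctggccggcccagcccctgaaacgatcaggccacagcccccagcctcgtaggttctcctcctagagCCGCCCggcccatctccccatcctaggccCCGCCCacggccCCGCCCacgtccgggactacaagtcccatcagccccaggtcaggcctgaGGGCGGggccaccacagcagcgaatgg
Insig1: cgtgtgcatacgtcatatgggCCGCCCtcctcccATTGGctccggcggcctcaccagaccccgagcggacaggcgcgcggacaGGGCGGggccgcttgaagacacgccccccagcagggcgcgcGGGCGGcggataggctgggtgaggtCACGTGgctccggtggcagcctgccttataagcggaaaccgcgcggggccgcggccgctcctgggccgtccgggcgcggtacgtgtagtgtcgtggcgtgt
Elovl6: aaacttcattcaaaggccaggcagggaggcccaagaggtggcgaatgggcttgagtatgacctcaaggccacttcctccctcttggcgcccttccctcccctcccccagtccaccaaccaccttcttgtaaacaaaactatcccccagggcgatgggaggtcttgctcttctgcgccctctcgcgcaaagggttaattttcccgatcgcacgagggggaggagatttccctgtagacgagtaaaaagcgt
Msmo1 carried 3 CCAAT and 2 GGGCGG matches in this stretch, Acly 4 of GGGCGG and Insig1 1 of CCAAT, 3 of GGGCGG and 1 E-box. No match says only that these letters are not in the window.

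No member passed the test for a difference in captopril cortex. In limma, 0 of 26 tested members passed an adjusted p of 0.05, as did 0 of all 9718 tested genes (0%), and the members' adjusted p ran from 0.995 to 0.999. At an unadjusted p under 0.05 there were also 0 members, against 3.69% of all tested genes. The members' differences were small, from -0.27 for Srebf1 to 0.38 for Msmo1. Their median was 0.07, against -0.0034 over all tested genes, and 21 of 26 members had the higher mean in captopril cortex, against 49.1% of all tested genes. Members of 1 pathway measured on the same 6 arrays are not independent, so this count carries no test.

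For most tested members, though not all, the interval at the gene's probe bounded the difference on the neqc scale. All 26 of the 95% intervals included 0, and in 20 of 26 the whole interval lay within 1.5-fold in either direction, against 67.6% of all tested genes. The groups did not overlap in 2 members, Msmo1 and Acly, both higher in captopril cortex. That is 7.69% of the members, against 8.73% of all tested genes (3.98% higher and 4.74% lower in captopril cortex), a share near the background.

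**Figure D1:**
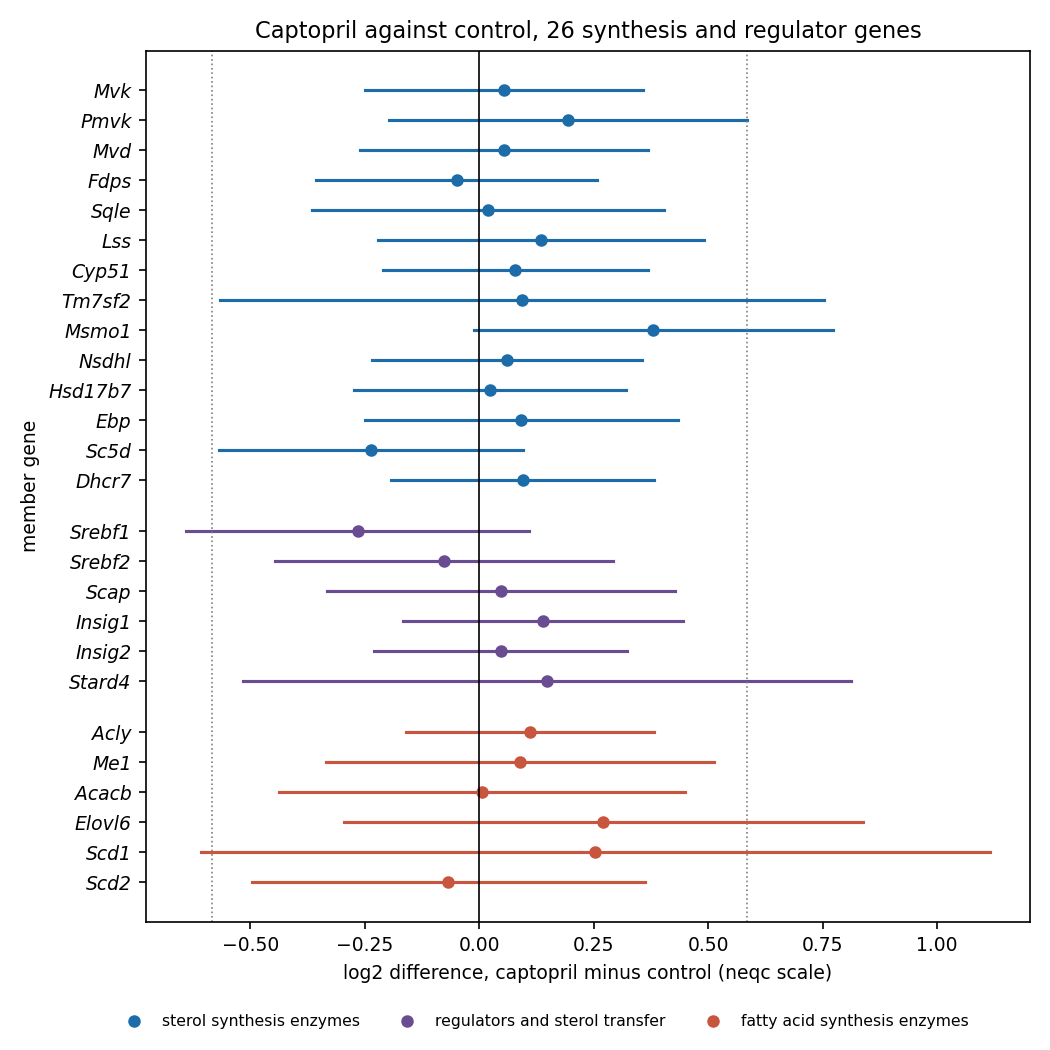
Differences between captopril and control cortex for the 26 tested members, by arm. Points are log2 differences on the neqc scale, horizontal lines 95% intervals from limma, dotted lines 1.5-fold either way; every interval crosses 0, and Scd1 and Stard4 have the widest.

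Among the sterol synthesis enzymes, 14 genes were tested, 12 had the higher mean in captopril cortex and 0 passed in limma. The first steps commit mevalonate to isoprenoids. Mvk, the mevalonate kinase gene, stood at 5.50, 5.55 and 5.53 in control arrays 1 to 3 and at 5.62, 5.40 and 5.72 in captopril arrays 1 to 3. The captopril arrays lay on both sides of the controls, for a difference of 0.05 (SE 0.13, 95% interval -0.25 to 0.36). Pmvk, the next kinase, differed by 0.19 (SE 0.17), Mvd, the decarboxylase after it, by 0.05 (SE 0.14) and Fdps, which makes farnesyl diphosphate, by -0.05 (SE 0.13). The groups overlapped in all of these.

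Sqle encodes squalene monooxygenase, the oxygen-requiring and rate-setting step after squalene. Its brighter probe read 10.37, 10.33 and 9.85 in the controls and 10.12, 10.28 and 10.21 in the captopril arrays. Control array 3 was the lowest of all, and the captopril arrays fell between it and the other controls. The difference was 0.02 (SE 0.17, 95% interval -0.36 to 0.40), and it was -0.15 without control array 3. The other tested Sqle probe gave -0.19 (SE 0.18). Lss, whose product closes squalene epoxide into lanosterol, differed by 0.13 (SE 0.16).

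After lanosterol, Cyp51 encodes the demethylase that starts the trimming of the ring. Its values were 10.79, 10.77 and 10.73 in the controls and 10.74, 10.81 and 10.97 in captopril cortex. They spanned little on all 6 arrays, with a difference of 0.08 (SE 0.13, 95% interval -0.21 to 0.37). Hsd17b7, a ketoreductase of the same stage, differed by 0.02 (SE 0.13). Tm7sf2, a sterol reductase gene, was detected on 1 control and 3 captopril arrays and differed by 0.09 (SE 0.29), a value near the detection limit.

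Msmo1, the sterol C4-methyl oxidase gene, had the largest difference of any tested member at its gene's probe. Its values were 7.46, 7.39 and 7.20 in the controls and 8.03, 7.69 and 7.47 in the captopril arrays. Every captopril array lay above every control, although captopril array 3 exceeded control array 1 by very little. The means were 7.35 ± 0.14 and 7.73 ± 0.28 (SD, n = 3 per group), a difference of 0.38 (SE 0.17, 95% interval -0.01 to 0.77), or 1.30-fold. It did not pass in limma (adjusted p = 0.995, and from 0.761 to 1.00 over its alternatives). The difference stayed above 0 in all 18 alternatives, several of which cannot change it by construction. It depended on the processing, at 0.24 without background correction and 0.15 in the authors' processed values. Both kinds of values also gave smaller differences at dim probes of other members, such as Pmvk, at 0.07 and 0.03 in place of 0.19. At bright probes such as Cyp51 they changed little, at 0.07 and 0.07 in place of 0.08.

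Nsdhl acts on the same C4 methyl groups directly after Msmo1, and it had 4 tested probes. The brightest read 8.16, 8.15 and 8.12 in the controls and 8.33, 8.23 and 8.06 in captopril cortex, a difference of 0.06 (SE 0.13). Probes ILMN_2594521 and ILMN_2725402 gave 0.08 and 0.03. The dimmest, ILMN_2958207, read 5.39, 4.95 and 5.02 against 5.69, 5.53 and 6.07. Its groups did not overlap, as in 8.69% of all tested probes, and its difference of 0.64 (SE 0.19) was the single member probe of 34 with an unadjusted p under 0.05 (0.00859, adjusted p = 0.995 in limma), against 4.28% of all tested probes. That probe was detected on 1 of the 3 control arrays, and its difference was 0.19 with no background correction, while the authors' processed values gave 0.09.

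The last steps convert zymosterol to cholesterol. Ebp, the sterol isomerase gene, differed by 0.09 (SE 0.15) and Dhcr7, which encodes the reductase of the final step, by 0.09 (SE 0.13). Sc5d, the desaturase gene between them, was one of the few members with a lower mean in captopril cortex. It read 6.0, 5.70 and 6.03 in the controls and 5.59, 5.63 and 5.80 in the captopril arrays. Control array 2 fell inside the captopril range, and the difference was -0.24 (SE 0.14, 95% interval -0.57 to 0.10), or -0.04 in the authors' processed values.

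**Figure D2:**
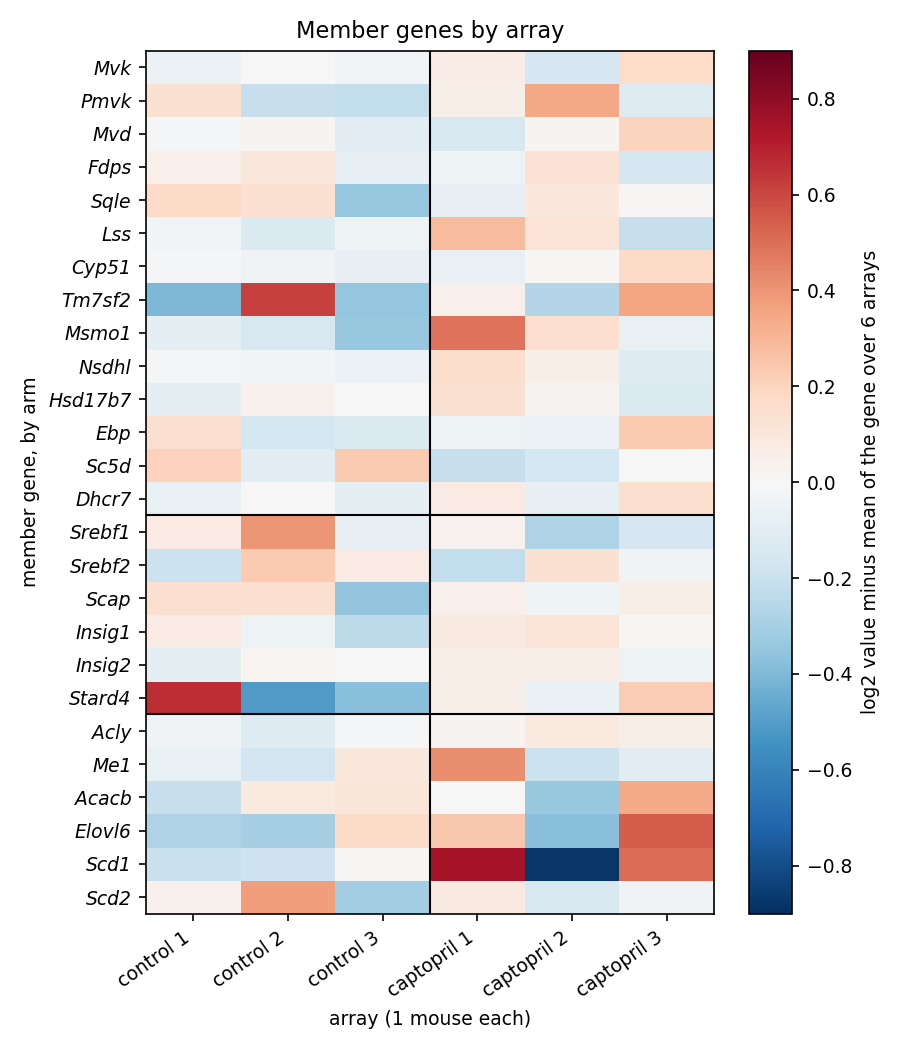
The 26 tested members on each array, as log2 value minus the gene's mean over the 6 arrays (red higher, blue lower), with horizontal lines between the arms and a vertical line between control and captopril arrays. Most sterol enzymes are pale on every array, and Scd1 is the strongest contrast, at 10.26, 8.63 and 10.01 in captopril arrays 1 to 3.

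Among the regulators, all 6 genes were tested and 0 passed in limma. Srebf1, which encodes the activator that favours fatty acid genes, read 6.50, 6.82 and 6.35 in the controls and 6.46, 6.15 and 6.28 in the captopril arrays. Captopril arrays 2 and 3 lay below every control and captopril array 1 did not. The difference was -0.27 (SE 0.16, 95% interval -0.64 to 0.11), or -0.06 in the authors' processed values. Srebf2, which encodes the activator that favours cholesterol genes, read 7.94, 8.37 and 8.20 against 7.91, 8.26 and 8.10. The groups covered nearly the same range, with a difference of -0.08 (SE 0.16, 95% interval -0.45 to 0.29), and the other Srebf2 probe gave 0.07.

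Insig1 is itself a target of these activators and a usual readout of sterol shortage. It read 6.03, 5.91 and 5.72 in the controls and 6.03, 6.07 and 5.97 in captopril cortex, overlapping groups that differed by 0.14 (SE 0.13, 95% interval -0.17 to 0.44). The second tested Insig1 probe gave 0.10. Insig2, the relative that is less sterol-driven, was among the steadiest members at 9.13, 9.24 and 9.21 against 9.27, 9.28 and 9.17. Its difference of 0.05 (SE 0.12, 95% interval -0.23 to 0.32) excluded a 1.5-fold difference on the neqc scale at the 95% level. Its second tested probe gave 0.10. Scap, the escort protein gene, differed by 0.05 (SE 0.17) at its brighter probe and by 0.36 (SE 0.18) at the other.

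Stard4 encodes a small protein that carries cholesterol through the cytosol. It read 8.39, 7.22 and 7.35 in the controls and 7.78, 7.67 and 7.95 in the captopril arrays. Control array 1 stood above all others, and the remaining controls below all captopril arrays, so that the difference of 0.15 (SE 0.29) became 0.52 without control array 1 and -0.07 without control array 2. The adjusted p without control array 1 was 0.638 in limma, the smallest for any member under any alternative, against 0.638 to 1.00 over the alternatives of Stard4.

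**Figure D3:**
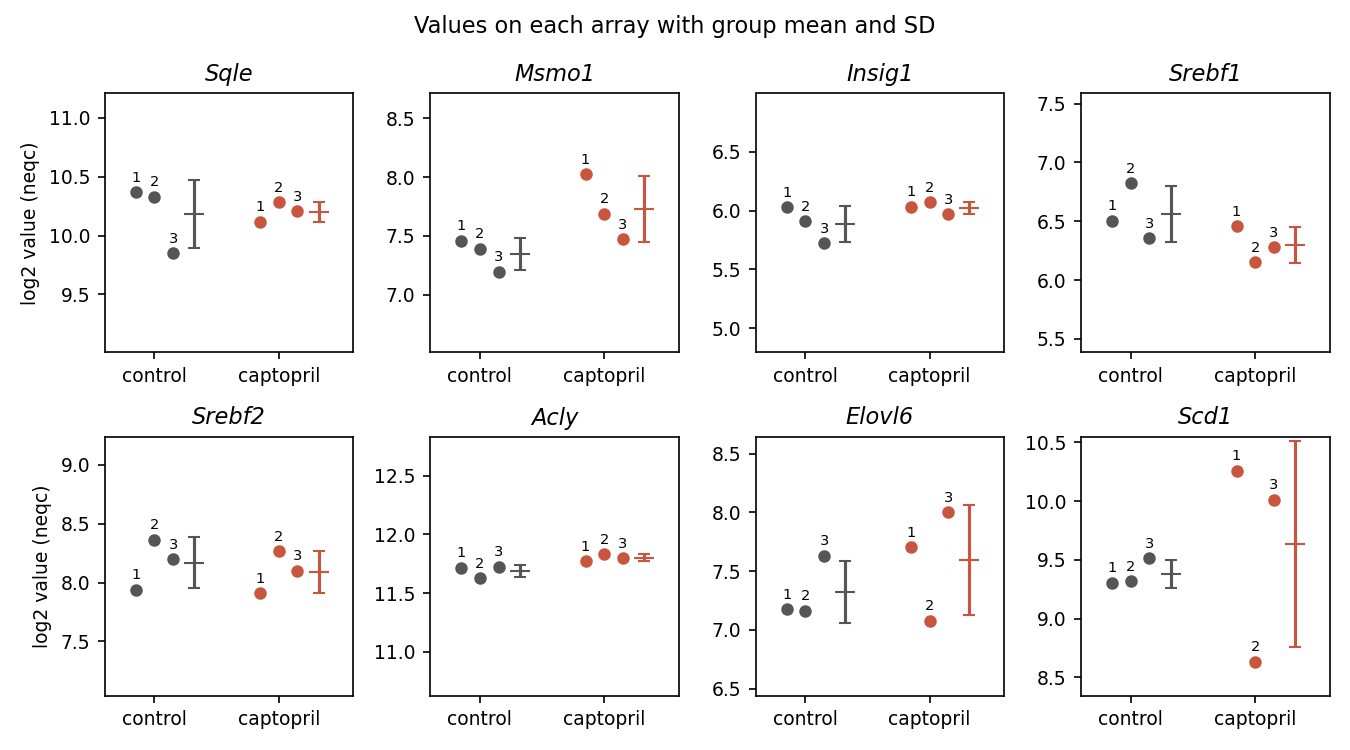
Values of 8 members on each array, with points numbered by replicate and the group mean ± SD (n = 3) beside them, on log2 axes that each span the same 2.2 units. Captopril arrays lie above the controls in Msmo1 and Acly, overlap them in the other 6, and are spread widest in Scd1.

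The fatty acid synthesis enzymes held a steady gene, Acly, and several that varied widely from mouse to mouse. Of the 6 tested, 5 had the higher mean in captopril cortex and 0 passed in limma. Acly encodes ATP-citrate lyase, which supplies acetyl-CoA to both routes. It read 11.72, 11.63 and 11.72 in the controls and 11.77, 11.83 and 11.80 in the captopril arrays. Every captopril array lay above every control, with means of 11.69 ± 0.05 and 11.80 ± 0.03 (SD, n = 3 per group). The difference was 0.11 (SE 0.12, 95% interval -0.16 to 0.38), or 1.08-fold, and 0.11 in the authors' processed values too. The adjusted p was 0.995 in limma and 0.926 to 1.00 over the alternatives. The limma SE exceeds the spread seen between these arrays because it borrows the spread of all tested probes, and 99.1% of tested genes had a larger spread within groups than Acly.

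Scd1, the stearoyl-CoA desaturase gene, stood at the other end of the range. It read 9.31, 9.32 and 9.51 in the controls and 10.26, 8.63 and 10.01 in the captopril arrays. Captopril arrays 1 and 3 were above every control and captopril array 2 below every one. The means were 9.38 ± 0.12 and 9.63 ± 0.88 (SD, n = 3 per group), a difference of 0.25 (SE 0.37, 95% interval -0.61 to 1.11). It was 0.75 without captopril array 2 and -0.06 without captopril array 1. A larger spread within groups was found in 0.473% of tested genes. Its relative Scd2 did not share the pattern, at 6.18, 6.51 and 5.82 against 6.21, 5.99 and 6.10, for a difference of -0.07 (SE 0.19).

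Elovl6, which elongates the product of fatty acid synthase, read 7.18, 7.16 and 7.63 in the controls and 7.70, 7.08 and 8.0 in the captopril arrays. Captopril array 2 was again the lowest of the 6, and the difference of 0.27 (SE 0.25, 95% interval -0.30 to 0.84) was 0.53 without it and 0.07 without captopril array 3. Me1, the malic enzyme gene that supplies NADPH, read 7.08, 6.98 and 7.25 against 7.57, 6.96 and 7.05, for a difference of 0.09 (SE 0.18). Acacb, the carboxylase gene whose product restrains mitochondrial fatty acid oxidation, read 7.62, 7.92 and 7.94 against 7.84, 7.49 and 8.17, for a difference of 0.0058 (SE 0.19). Captopril array 2 was the lowest array in 4 of the 6 genes of this arm, namely Me1, Acacb, Elovl6 and Scd1, and the highest in 1, Acly.

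Adipocyte markers varied over the same arrays. Averaged over tested genes after centring each gene on its 6-array mean, the fatty acid arm stood at -0.12, -0.05 and 0.0098 in the controls and at 0.25, -0.31 and 0.22 in the captopril arrays. The white and brown adipocyte list stood at -0.86, -0.23 and 0.19 against 0.84, -0.63 and 0.69. Captopril arrays 1 and 3 were the highest for both lists. Of the 12 adipocyte markers with a probe, 7 were tested, 6 of them with a higher mean and 0 past the threshold in captopril cortex, with a median difference of 0.54. The summed linear level of these 7 ran from 1018 to 1415 in the controls and from 1215 to 2029 in captopril cortex. Cox7a1 made up 55.0% to 83.8% of that sum, and the other 6 summed to 171 to 433 in the controls and 196 to 864 in captopril cortex. Fabp4, Plin1, Retn and Elovl3 were not detected on any array. Among the 7, Cox8b, a subunit gene of brown fat mitochondria, had the widest range, at 4.36, 6.28 and 7.18 against 8.51, 5.34 and 8.28. Cidea, a lipid droplet gene of brown fat, followed at 4.54, 5.40 and 6.69 against 7.71, 5.03 and 7.45. Cox8b was detected on 5 of the 6 arrays, Cidea and Adipoq on 4, and Ucp1 and Lep on 3. Their lowest values thus lie near the detection limit. Of the markers detected on all 6, Cox7a1 was highest in captopril arrays 1 and 3. The other, Lipe, was not, at 5.33, 5.83 and 5.35 against 5.82, 5.17 and 5.25.

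With the adipocyte level as a covariate, chosen after seeing the data, the mean difference of the fatty acid arm was -0.08 in place of 0.11, that of Scd1 -0.23 and that of Elovl6 -0.02. Because the covariate was chosen for moving with this arm, these shifts are a description and no test. The part of fat cells in these values was not tested, and in bulk tissue more cells of a type and more RNA per cell cannot be told apart. The sterol arm had no such swing, at -0.0027, 0.01 and -0.11 in the controls and 0.05, 0.02 and 0.04 in captopril cortex. Its captopril levels lay just above its controls, and its mean difference of 0.07 was 0.03 without control array 3. That array was the lowest in 5 of its 14 genes, and captopril array 3 was the lowest in 4. Proximal tubule markers stood at -0.11, -0.00024 and -0.0033 against 0.03, 0.05 and 0.04, so their list level too was above the controls in captopril cortex. Of the 8 tested, 5 had the higher mean and Aqp1, Slc22a6 and Slc34a1 the lower, with a median difference of 0.02. The part of proximal tubule markers in the sterol values was not tested.

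**Figure D4:**
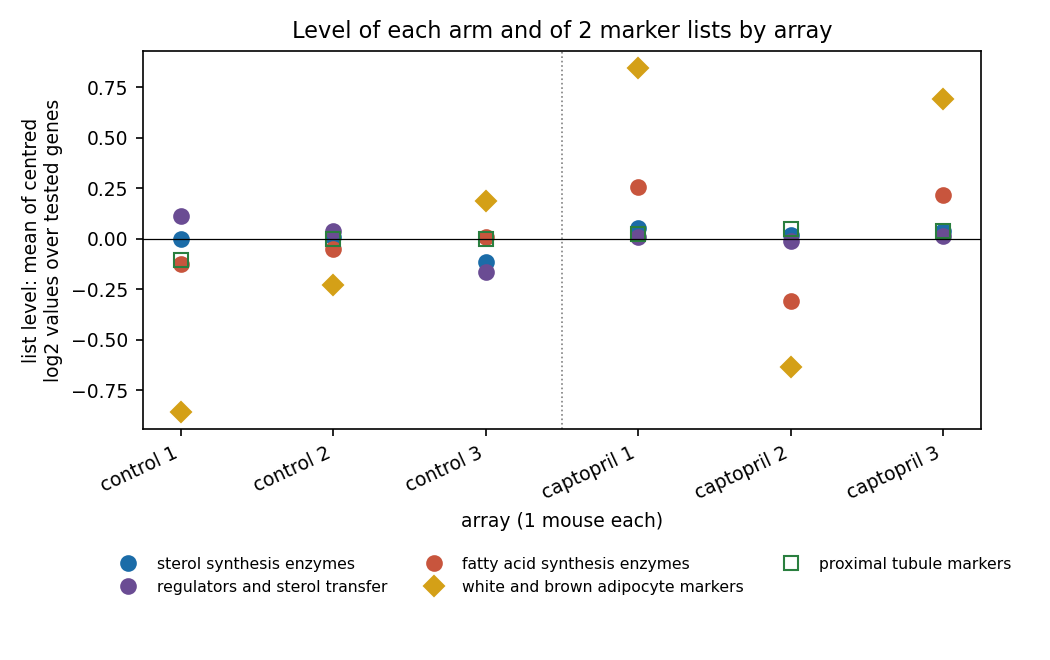
Mean of centred log2 values over the tested genes of each arm, of the adipocyte markers and of the proximal tubule markers, by array (1 mouse each), with no error bars as each point is 1 array. Adipocyte levels run from -0.86 to 0.84 and fatty acid levels from -0.31 to 0.25, both highest in captopril arrays 1 and 3. Sterol levels stay within -0.11 and 0.05.

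The members differed among themselves in steadiness. The median spread within groups was 0.14 in the sterol arm, 0.20 among the regulators and 0.26 in the fatty acid arm, against 0.19 over all tested genes (SD of log2 values). Besides Acly, Insig2, Dhcr7 and Cyp51 were steady, with a larger spread in 97.3%, 90.8% and 89.6% of tested genes. Besides Scd1, the most variable members were Stard4 and Tm7sf2, with a larger spread in 3.45% and 3.56%. Of the 6 members with more than 1 tested probe, 4 had all probes on one side of 0 and Sqle and Srebf2 did not.

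Neighbouring lipid pathways, taken from lists chosen with earlier results of these data known, held 53 tested genes, with 0 past the threshold in limma and 1 at an unadjusted p under 0.05. Groups did not overlap in 8 of the 53 (15.1%), against 8.73% of all tested genes. Of these, 2 were higher in captopril cortex, Agpat3 and Nceh1, and 6 lower, namely Acss2, Dgat1, Mbtps1, Stard3, Stard5 and Cyp27a1, of which those not described below were chosen after their values were seen. Among other sterol and isoprenoid steps and processing of the sterol regulatory element-binding proteins, 10 of 16 listed genes had a named probe, 7 were tested and 4 had the higher mean, with a median difference of 0.01. Its smallest unadjusted p values belonged to Mbtps1, the site-1 protease gene that releases the activators, at -0.20 (SE 0.13), and Lbr, a sterol reductase gene, at 0.22 (SE 0.16). Among sterol uptake, trafficking, efflux and breakdown genes, 14 were tested and 9 had the higher mean, with a median of 0.07. Apoe, the apolipoprotein E gene, read 8.03, 8.33 and 8.45 against 8.51, 9.03 and 8.36, overlapping groups that differed by 0.36 (SE 0.20). Ch25h, the cholesterol 25-hydroxylase gene, differed by 0.60 (SE 0.27) but was detected on 1 control and 2 captopril arrays, at 5.81, 6.13 and 5.05 in captopril cortex. Both were highest in captopril array 2 and, among captopril arrays, lowest in array 3. The macrophage list mean had the same order there, at 0.26, 0.46 and -0.34 in the captopril arrays. Its controls stood at -0.11, -0.09 and -0.19. Of its tested markers, C1qa, C1qb, C1qc, Cd74 and Lyz2 shared the captopril order, and Csf1r and Lyz1 did not. Csf1r read 6.83, 7.19 and 7.07 in the captopril arrays, and Lyz1 read 9.97, 9.81 and 9.04. All 7 tested macrophage markers had the higher mean in captopril cortex, 0 passed in limma and the median difference was 0.24. Their summed level ran from 4077 to 4328 in the controls and from 3980 to 5897 in captopril cortex. The part of macrophages in these values was not tested.

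Among other fatty acid genes, 20 were tested and 9 had the higher mean, with a median of -0.01. Acss2, which activates acetate to acetyl-CoA and so works beside Acly, read 12.83, 12.60 and 12.78 in the controls and 12.47, 12.35 and 12.57 in the captopril arrays. Every captopril array lay below every control, the opposite order to Acly, for a difference of -0.28 (SE 0.13, 95% interval -0.58 to 0.03) that did not pass in limma (adjusted p = 0.995). Thrsp, a lipogenic gene strong in fat, read 4.99, 5.27 and 6.06 against 6.69, 5.07 and 7.45 and was detected on 2 arrays of each group, with captopril arrays 1 and 3 again the highest. Its difference was 0.96 (SE 0.55).

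Glycerolipid synthesis and release genes, all 12 of which were tested, had 3 with the higher mean and a median of -0.06. Agpat3, an acyltransferase gene of phospholipid synthesis, read 6.33, 6.10 and 6.05 in the controls and 6.70, 6.51 and 6.70 in the captopril arrays. Every captopril array lay above every control, for a difference of 0.47 (SE 0.14, 95% interval 0.16 to 0.79). It was the 1 neighbouring gene with an unadjusted p under 0.05, and its adjusted p was 0.995 in limma. Its difference was 0.21 with no background correction, and the authors' processed values gave 0.10.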

How the data were processed

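Kidney cortex RNA of 6 mice, 1 per array, was hybridised to Illumina MouseWG-6 v2 arrays. The authors deposited a non-normalized intensity and a detection p-value per probe and array, per the file headers. The deposited processed values lie on a log2 scale, judged from their range, and per the submitters' processing notes lumi was used, with no version given; their transform is not stated there. Array files state no chip, so no chip could be used as a block. Precision is limited by having 3 arrays a group. P-values rest on the spread between these mice, moderated in limma by the spread of all tested probes.

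Intensities were corrected for background with negative control statistics inferred from the detection p-values, offset by 16, quantile-normalized and put on log2 (neqc in limma 3.58.1, R 4.3.3). Probes detected (p under 0.05) on 3 or more of the 6 arrays were tested with limma (lmFit, eBayes) and Benjamini-Hochberg adjustment over all 16500, at a threshold of 0.05. The gene names came from the platform annotation, in which 34885 probes carried 1 symbol and 10396 did not, 18 of these having several, and names were taken only from the former. Every member is reported, in full where groups did not overlap, where an unadjusted p fell under 0.05 or where the step is rate-setting or regulatory; from neighbouring lists, genes with an unadjusted p under 0.05 or else the 2 with the smallest p are named. The members and lists were chosen with earlier results of these data known. Promoter windows are RefSeq's, build GRCm38.p6. The fit was tested on simulated data. Alternatives covered background, scaling, filter, probe choice, variance model, replicate block, the authors' values and each array left out.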

Additional observations from a re-analysis of the deposited data

How the results depend on the processing

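The count of 0 members past the threshold in limma held under every alternative run, with 0 to 2 members at an unadjusted p under 0.05, and the count of 0 in the neighbouring lists held as well, with 1 gene at an unadjusted p under 0.05 in the main setting and 1 to 5 over the alternatives. The 3 probes past the threshold became 5 with a trended and robust variance, 2 to 2 with any array left out, 0 with the replicate block, 0 without captopril arrays 1 and 3, and 707 at an unadjusted p. Same-numbered control and captopril arrays correlated at 0.0045, 0.0099 and 0.042 in their deviations from the group means. Arrays with different numbers correlated at -0.055 to 0.041. The labels do not say what same-numbered arrays share. The replicate block, which pairs them, kept the member count at 0. Median scaling moved the median of all genes to 0.08, the mean difference of all members from 0.07 to 0.15 and that of the sterol arm to 0.15. Relative to that shift both stay near the main values. The mean was -0.031 for all members and -0.25 for the fatty acid arm in the fit that dropped captopril arrays 1 and 3, in which the spread comes from the controls and is taken to hold for the remaining treated mouse. Those 2 arrays were also the highest of the fatty acid arm, so its lower mean follows from their choice and is no test. With each array left out in turn it ran from 0.03 to 0.11 for all members, 0.03 to 0.09 for the sterol arm, -0.07 to 0.06 for the regulators and 0.01 to 0.29 for the fatty acid arm.

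Of 467 alternatives over the 26 member genes, 422 kept their direction and 45 reversed it. None of these passed the threshold, and the cause was not tested. Changes of filter, the trended and robust variance and the replicate block leave a gene's difference unchanged, so these could not reverse it. Averaging probes could not either in a gene with 1 tested probe. Median scaling reversed Fdps (0.029), Srebf2 (0.0091) and Scd2 (0.031), averaging probes reversed Sqle (-0.085), and array weights reversed Acacb (-0.019). The adipocyte covariate reversed Mvk (-0.028), Fdps (0.034), Tm7sf2 (-0.069), Me1 (-0.054), Acacb (-0.20), Elovl6 (-0.023) and Scd1 (-0.23). Leaving out captopril arrays 1 and 3 reversed Mvk (-0.12), Fdps (0.10), Tm7sf2 (-0.21), Ebp (-0.0066), Dhcr7 (-0.026), Srebf2 (0.10), Scap (-0.016), Me1 (-0.14), Acacb (-0.33), Elovl6 (-0.24) and Scd1 (-0.75). With 1 array left out, values crossed 0 in Mvk (-0.015 to 0.14), Mvd (-0.033 to 0.14), Fdps (-0.13 to 0.013), Sqle (-0.15 to 0.11), Tm7sf2 (-0.084 to 0.43), Nsdhl (-0.0021 to 0.13), Hsd17b7 (-0.038 to 0.092), Ebp (-0.0042 to 0.19), Srebf2 (-0.19 to 0.021), Scap (-0.12 to 0.13), Stard4 (-0.068 to 0.52), Me1 (-0.10 to 0.21), Acacb (-0.16 to 0.18), Scd1 (-0.057 to 0.75) and Scd2 (-0.24 to 0.11). A chip block was not run, since the headers name no chip.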
